A study of Mus musculus with 75 samples.

Results

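Myosin is the motor protein of the muscle thick filament, and 8 genes for its heavy and light chains were followed here in mouse calf muscle. Each motor holds a pair of heavy chains, and every heavy chain carries an essential and a regulatory light chain. Adult muscle fibres are typed by their heavy chain. Myh7 marks slow type I fibres, Myh2 type IIa, Myh1 type IIx and Myh4 the fastest, glycolytic type IIb fibres. Among the light chains, Myl1 encodes the essential and Mylpf the regulatory chain of fast fibres, while Myl3 and Myl2 encode the essential and regulatory chains of slow fibres and of the heart ventricle. The gastrocnemius of the mouse is a mostly fast muscle rich in type IIb fibres. The 8 genes were taken by symbol from the deposited expression table, and all 8 were among its 13856 genes.

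The muscles came from female and male BALB/c mice in 5 arms per sex. Control mice were injected with PBS and received saline. The other 4 arms were injected on both sides with C26 cells, a mouse colon carcinoma line used as a model of cancer wasting. Tumour-bearing mice received saline, 5-fluorouracil, paclitaxel or cisplatin from day 12, and muscle was collected at day 25. Drugs were given as 2 cycles, dosed at 75% of what is tolerated at most. No arm received a drug without a tumour, and the age of the mice is not given in the sources used here. Females comprised 7 PBS and 7 C26 saline libraries, with 8 of 5-fluorouracil, 7 of paclitaxel and 6 of cisplatin. Males comprised 8 PBS and 8 C26 saline libraries, with 8 of 5-fluorouracil, 6 of paclitaxel and 8 of cisplatin. The comparisons ask how the tumour, and each drug on top of it, was reflected in fibre-type myosin transcripts of each sex.

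The deposited values are log2 expression values scaled by library, and differences below are log2 differences between group means with a standard error (SE). A gene was called when its adjusted p was under 0.05 over all 13856 genes of a comparison in limma. Depth recovered from the values was 11.4 to 40.5 M estimated counts per library. In 19 of the 73 libraries, genes of high GC content stood higher than elsewhere (GC slope above 0.1). In these high-GC libraries the median share of mitochondrially encoded transcripts was 2.58%, against 10.5% in the other 54. Of the male groups, 4 of 6 paclitaxel, 4 of 8 5-fluorouracil, 2 of 8 cisplatin, 2 of 8 PBS and 0 of 8 C26 saline libraries were of this kind. Skeletal muscle markers (Acta1, Ckm, Mb, Des and Neb) made up 6.11 to 13.9% of expression and none was at 0 in any library. In bulk muscle RNA, fewer fibres of a type and less RNA per fibre cannot be told apart.

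The promoters of the 3 fast heavy chain genes, which lie side by side on chromosome 11, and of both fast light chain genes are shown because these 5 genes carry the abundant transcripts below. Sequences are from RefSeq on GRCm38.p6 and cover 250 bases before and 50 after each gene's start, read 5′ to 3′ on the gene's strand. In the heavy chain genes, capitals mark the longest run of bases that all 3 share. In the light chain genes, capitals mark the match to an E-box, the CANNTG motif read by myogenic factors.
Myh4 (chr11:67237562-67237861, + strand): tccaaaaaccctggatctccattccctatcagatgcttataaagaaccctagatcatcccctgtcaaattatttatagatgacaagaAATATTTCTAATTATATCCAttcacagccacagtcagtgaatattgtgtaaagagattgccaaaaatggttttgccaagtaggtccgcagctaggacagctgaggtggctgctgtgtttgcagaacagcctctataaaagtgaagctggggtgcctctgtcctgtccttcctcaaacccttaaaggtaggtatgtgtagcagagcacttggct
Myh1 (chr11:67199852-67200151, + strand): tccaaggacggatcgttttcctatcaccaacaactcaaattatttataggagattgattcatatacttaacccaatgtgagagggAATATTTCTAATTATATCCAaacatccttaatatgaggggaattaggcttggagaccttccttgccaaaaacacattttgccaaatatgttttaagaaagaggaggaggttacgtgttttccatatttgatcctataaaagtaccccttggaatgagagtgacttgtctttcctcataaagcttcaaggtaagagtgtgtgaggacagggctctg
Myh2 (chr11:67170777-67171076, + strand): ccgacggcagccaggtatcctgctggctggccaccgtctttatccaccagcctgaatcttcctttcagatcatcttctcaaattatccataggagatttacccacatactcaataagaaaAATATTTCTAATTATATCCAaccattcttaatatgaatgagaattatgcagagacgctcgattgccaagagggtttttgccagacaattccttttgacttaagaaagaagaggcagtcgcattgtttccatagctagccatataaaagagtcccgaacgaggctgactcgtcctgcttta
Myl1 (chr1:66945007-66945306, - strand): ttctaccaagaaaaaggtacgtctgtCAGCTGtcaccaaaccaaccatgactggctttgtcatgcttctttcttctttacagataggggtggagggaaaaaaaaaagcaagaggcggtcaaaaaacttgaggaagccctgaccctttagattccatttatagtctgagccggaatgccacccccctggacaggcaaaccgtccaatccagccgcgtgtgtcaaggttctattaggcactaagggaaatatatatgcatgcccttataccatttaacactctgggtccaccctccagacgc
Mylpf (chr7:127211358-127211657, + strand): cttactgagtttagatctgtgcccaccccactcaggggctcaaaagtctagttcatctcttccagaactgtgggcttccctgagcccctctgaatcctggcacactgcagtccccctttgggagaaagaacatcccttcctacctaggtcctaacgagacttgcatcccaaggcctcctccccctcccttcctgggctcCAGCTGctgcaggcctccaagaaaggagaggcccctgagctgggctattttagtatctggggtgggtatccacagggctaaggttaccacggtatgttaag

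The shared run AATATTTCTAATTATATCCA is 20 bases long and was in 0 of the other 32848 promoters. It begins 163 bases before the start of Myh4, 165 before that of Myh1 and 130 before that of Myh2. Aligned to each other, the Myh1 and Myh2 promoters were 76.1% identical, Myh4 and Myh2 68.9%, and Myh4 and Myh1 65.6%. TATAAA, the core promoter element, was searched on both strands like the other motifs. It had 3 matches in Myh4, 2 in Myh1, 1 in Myh2, 1 in Myl1 and 1 in a promoter entry of Myl2, and 13.6% of 32851 promoters hold it. The E-box stands 224 bases before the start of Myl1 and 51 before that of Mylpf, where it reads CAGCTG in both, and Myh4 held 3 E-box matches. As 72.3% of all promoters hold an E-box, its presence is common. A CArG box, the motif named for serum response factor, was matched once in Myh4 and once in Myl3, against 1.63% of all promoters. The MEF2 site, searched as the usual consensus of that factor and held by 3.19% of all promoters, was matched once in Myh4 and once in Myh1, and had 0 matches in the promoter entries of the other genes. These are matches of letters in a window and say nothing about binding.

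Without correction for transcript length, Myh4 had the highest mean log2 value of all 13856 genes and the highest value in 35 of the 73 libraries. Mylpf ranked 18 and Myl1 21, Myh1 38 and Myh2 39, Myh7 158, Myl2 462 and Myl3 728. Together the 8 genes made up 3.49 to 9.49% of a library's expression, with a median of 6.87%. These ranks and shares favour long transcripts, such as Myh4 at 6.02 kb, over short ones, such as Mylpf at 0.766 kb.

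Per kilobase of transcript, which allows levels of different genes to be compared, Mylpf and Myh4 stood at the top in every group. Their order was not the same in all libraries of a group, except in male PBS mice, where Mylpf was above Myh4 in 8 of 8. Myl1 came next to them in all 10 groups, and in every library it was far above the next gene, by 2.66 (male C26 saline) to 3.82 (male PBS) on the log2 scale in the group means. Myh1 and Myh2 mostly followed, and changed places between libraries of a group. In female cisplatin mice Myl2 stood between them in the group means, above Myh1 by 0.34 on the log2 scale and in 4 of 6 libraries. Myh7 stood lowest in all 10 groups, and below Myl3, a light chain of the same slow motor, in all libraries.

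By the same measure Myh4 made up 72.1 to 96.4% of the 4 heavy chains in a library, with a median of 87.6%. Myh1 made up 1.07 to 14.5% (median 5.07%), Myh2 1.60 to 15.1% (median 5.74%) and Myh7 0.103 to 3.54% (median 1.10%). By group, the mean share of Myh4 ran from 82.2% ± 7.8 (SD, n = 8) in male C26 saline mice to 90.1% ± 2.2 (SD, n = 7) in female paclitaxel mice. In male PBS mice it was 88.4% ± 4.2 (SD, n = 8), with libraries from 80.1 to 93.5%, and in male C26 saline mice libraries ran from 73.4 to 92.8%. The 2 groups overlap over most of their range. Among the light chains, Mylpf held 46.9 to 69.2%, Myl1 26.9 to 51.8%, Myl2 0.234 to 5.99% and Myl3 0.170 to 3.60%.

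**Figure D1:**
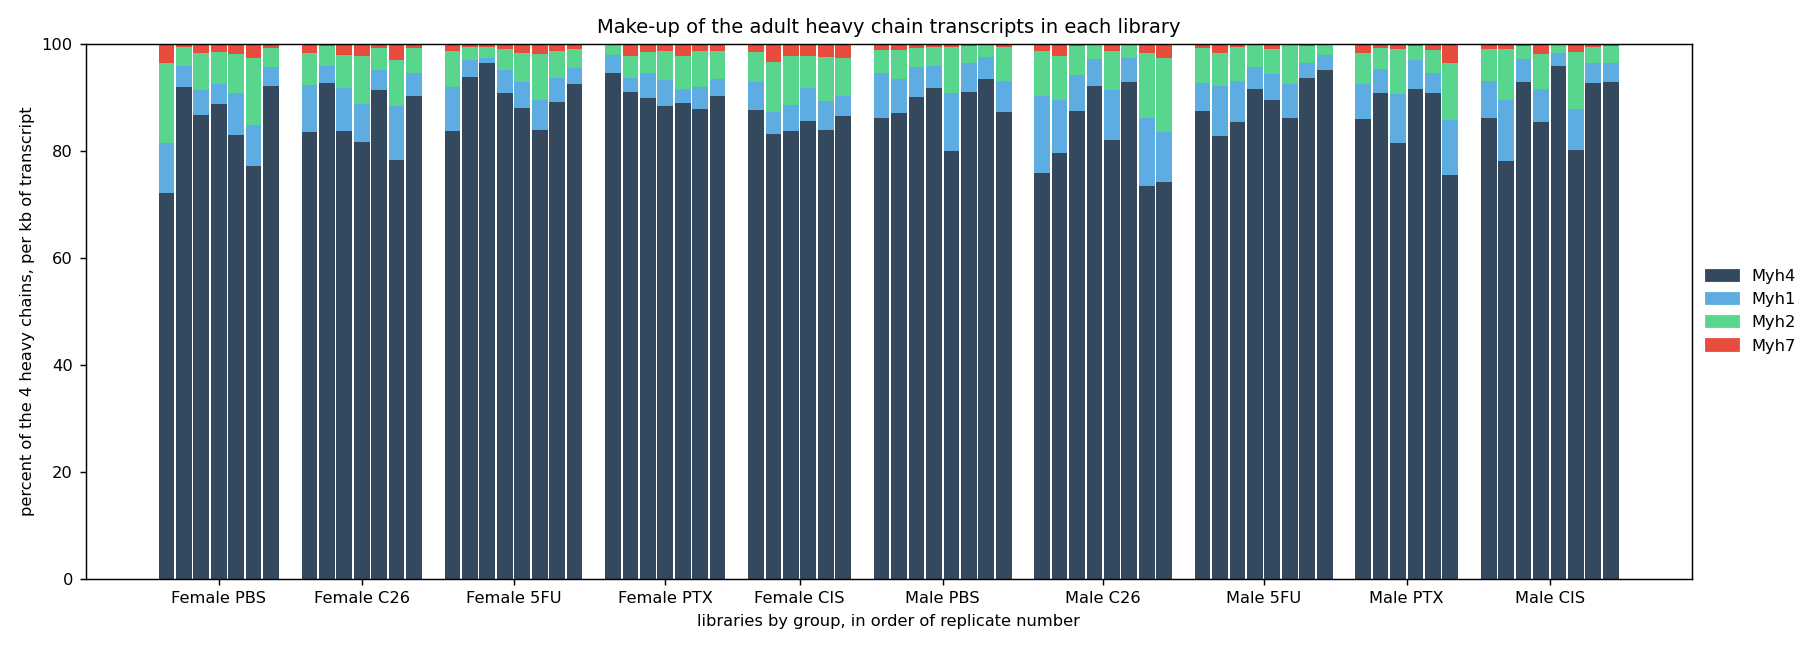
Percent of the 4 adult heavy chains, per kilobase of transcript, held by Myh4, Myh1, Myh2 and Myh7 (stacked bars, 1 bar per library, libraries in order of group and replicate number). Myh4 fills 72.1 to 96.4% of every bar, and Myh7 at most 3.54%.

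The split among the fast heavy chains depends on how reads were assigned. Of all 31-base words in the Myh1 transcript, 34.4% also occur in another of the 8 genes, and this was 32.3% for Myh2, 23.7% for Myh4, 1.11% for Myh7 and 0 for the 4 light chains. Words shared with genes outside the 8, such as the cardiac heavy chain gene Myh6, were not counted. Salmon, named in the processing notes, divides shared reads by estimation, so the split among Myh1, Myh2 and Myh4 is uncertain, and how far this moves their values was not tested.

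In males, the fast myosin genes were lower in mice with the C26 tumour. Myl1, the fast essential light chain, was at 0.389 of its PBS level, Mylpf, the fast regulatory chain, at 0.520, and Myh4, the type IIb heavy chain, at 0.580. These 3 of the 8 genes were called, all lower, in a comparison where 26.1% of all genes were called and 13% were called lower. The median difference of the 8 genes was -0.39, against 0.0025 over all genes. Together the 4 light chains made up 1.77% ± 0.18 (SD, n = 8) of expression in PBS mice and 0.903% ± 0.28 (SD, n = 8) in C26 saline mice. The 4 heavy chains made up 6.17% ± 0.74 and 4.27% ± 1.2.

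The log2 level of Myl1 in male PBS mice ran from 12.92 through a median of 13.25 to 13.40, and in male C26 saline mice from 11.24 through 11.75 to 13.14. Of the tumour libraries, 7 of 8 lie below every control, and C26 saline replicate 4 lies among the controls. The difference was -1.36 ± 0.19 (SE), with an adjusted p of 7.35e-08 in limma, and all 8 tumour libraries were below the PBS mean.

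Mylpf ran from 12.71 through 12.95 to 13.35 in male PBS mice and from 11.47 through 12.05 to 13.08 in male C26 saline mice, a difference of -0.94 ± 0.18 (adjusted p = 4.45e-05 in limma). Myh4 ran from 15.52 through 15.70 to 16.17 and from 14.14 through 14.94 to 16.12, a difference of -0.79 ± 0.20 (adjusted p = 0.00137 in limma). In both genes 7 of 8 tumour libraries were below the PBS mean, and the overlap again came from replicate 4. Replicate 4 was picked out after its values were seen. Without it the differences were -1.55 (Myl1), -1.09 (Mylpf) and -0.95 (Myh4), and the adjusted p in limma was 3.15e-10, 1.35e-06 and 4.84e-05. Under quantile normalization, which forces all libraries to 1 distribution, the difference was -0.42 for Myh4 (adjusted p = 0.00844) and -0.57 for Mylpf (adjusted p = 0.0135).

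**Figure D2:**
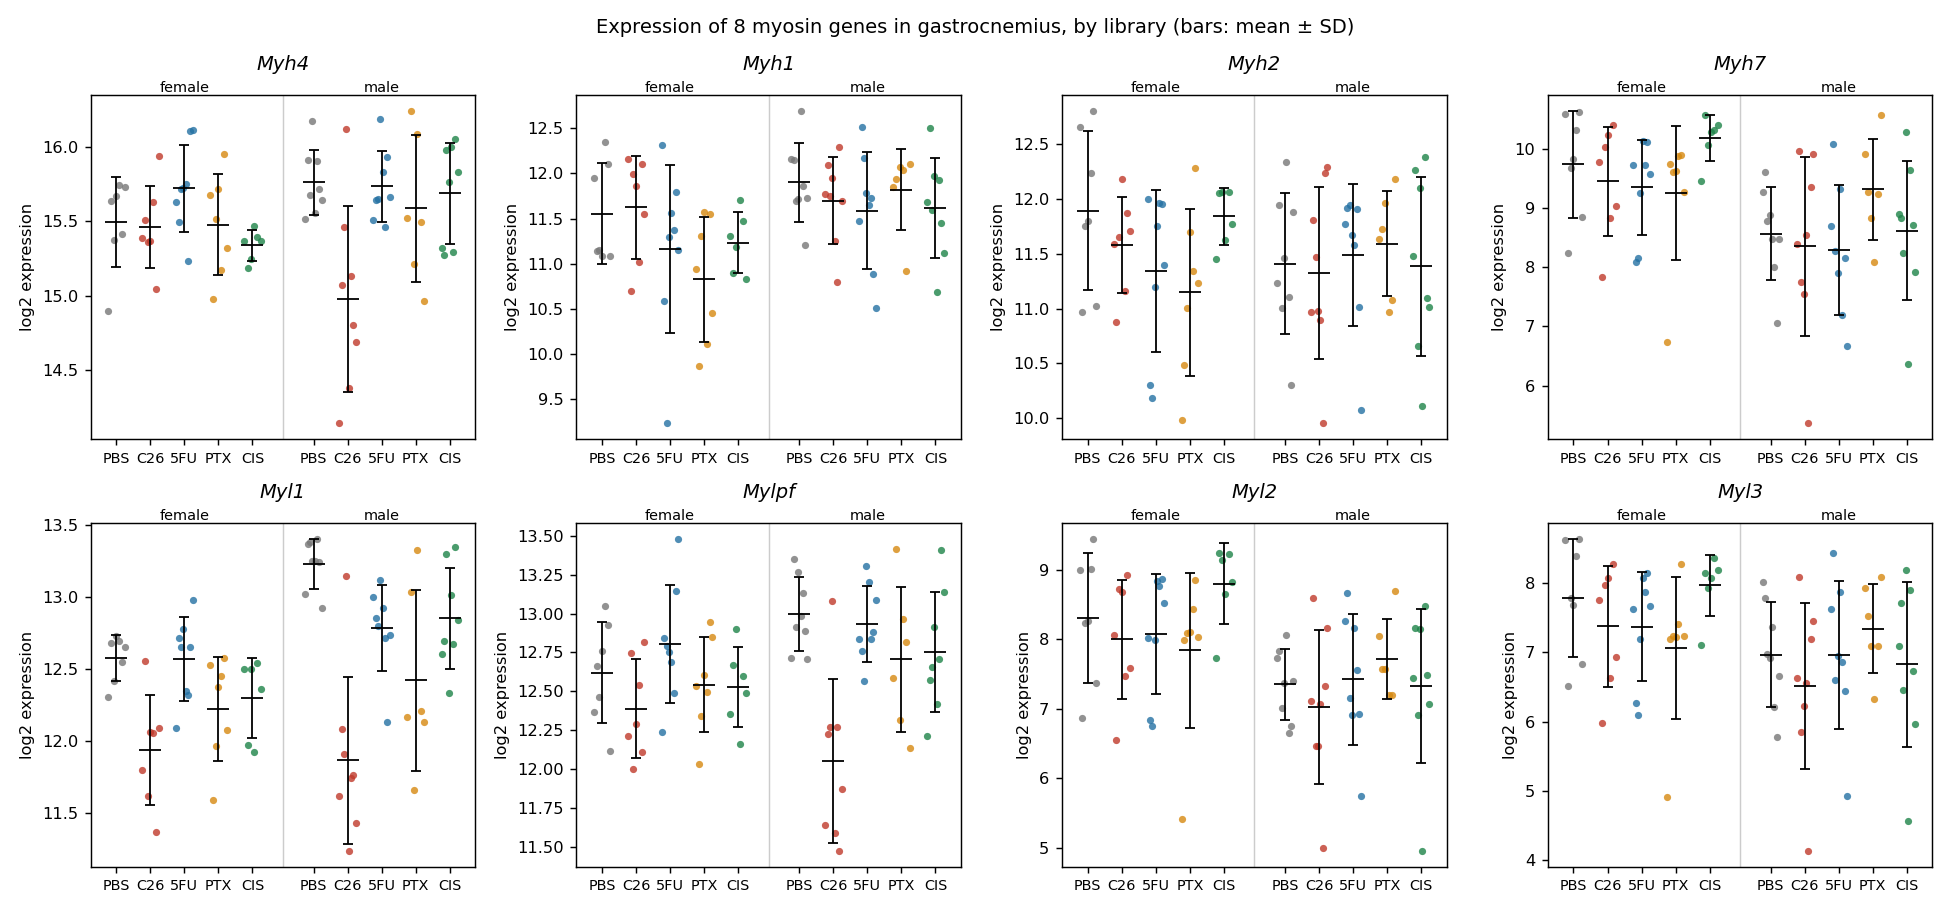
Log2 expression of the 8 genes in each of the 73 libraries by sex and arm (points), with the mean ± SD of each group (bars). The male C26 saline libraries of Myl1 lie at 11.24 to 12.08 except for 1 at 13.14, below the male PBS libraries at 12.92 to 13.40, while the slow genes Myh7, Myl2 and Myl3 spread widely inside every group.

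The other heavy chains and the slow light chains passed no test of the tumour in males. The difference was -0.20 with a 95% interval of -0.78 to 0.38 for Myh1, -0.09 (-0.73 to 0.56) for Myh2 and -0.22 (-1.20 to 0.77) for Myh7. It was -0.33 (-1.20 to 0.54) for Myl2 and -0.45 (-1.34 to 0.45) for Myl3. These intervals are wide, and those of Myh7, Myl2 and Myl3 reach below -1 on the log2 scale as well as above 0.

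In tumour-bearing males, the same 3 genes were higher with each drug than with saline. With 5-fluorouracil, Myl1 was 1.89-fold, Mylpf 1.84-fold and Myh4 1.69-fold the C26 saline level. With cisplatin, the folds were 1.98 (Myl1), 1.63 (Mylpf) and 1.64 (Myh4), and with paclitaxel 1.47, 1.57 and 1.53. Each time 3 of 8 genes were called, all higher, where 23.3% of all genes were called with 5-fluorouracil (11.3% higher), 15.9% with cisplatin (7.66% higher) and 31.9% with paclitaxel (13.5% higher). All 3 comparisons use the same 8 C26 saline libraries, which are also those of the tumour comparison, so these 4 sets of values are not independent of each other.

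With 5-fluorouracil, Myl1 ran from 12.13 through 12.83 to 13.12, a difference of 0.92 ± 0.19 (adjusted p = 0.000326 in limma). Mylpf ran from 12.57 through 12.86 to 13.31, a difference of 0.88 ± 0.18 (adjusted p = 0.000334 in limma). Myh4 ran from 15.46 through 15.66 to 16.19, a difference of 0.76 ± 0.20 (adjusted p = 0.00346 in limma). All 8 libraries were above the C26 saline mean in each gene, and in each the groups overlapped through the high C26 saline replicate 4, with a bare overlap through replicate 3 as well in Myh4. The call of Myh4 was lost under quantile normalization (0.30, adjusted p = 0.0707), without the high-GC libraries (0.59, adjusted p = 0.0836) and in a fit of these 2 groups alone (adjusted p = 0.0827).

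With cisplatin, Myl1 ran from 12.33 through 12.77 to 13.34, a difference of 0.98 ± 0.19 (adjusted p = 0.000114 in limma). Mylpf ran from 12.21 through 12.68 to 13.41 (0.70 ± 0.18, adjusted p = 0.00431 in limma) and Myh4 from 15.27 through 15.80 to 16.05 (0.71 ± 0.20, adjusted p = 0.00700 in limma). All 8 cisplatin libraries were above the C26 saline mean in each gene. The calls of Myh4 and Mylpf were lost under quantile normalization (0.32 and 0.41, adjusted p = 0.0683 and 0.122) and with only the 2 groups in the fit (adjusted p = 0.153 and 0.0752).

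With paclitaxel, the libraries spread more. Myl1 ran from 11.66 through 12.19 to 13.32, a difference of 0.55 ± 0.20 (adjusted p = 0.0316 in limma), and 5 of 6 libraries were above the C26 saline mean. Mylpf ran from 12.13 through 12.70 to 13.41 (0.65 ± 0.20, adjusted p = 0.0103 in limma, 6 of 6 libraries) and Myh4 from 14.97 through 15.51 to 16.24 (0.61 ± 0.21, adjusted p = 0.0226 in limma, 5 of 6). None of the 3 calls held without the high-GC libraries, which leaves 2 paclitaxel libraries (Myl1 0.86, adjusted p = 0.0696; Mylpf 0.50, 0.260; Myh4 0.55, 0.310), nor with the GC slope as a covariate (Myl1 0.60, adjusted p = 0.0971; Mylpf 0.30, 0.348; Myh4 0.40, 0.303). Under quantile normalization the difference of Myh4 was 0.04 (adjusted p = 0.821). Leaving out paclitaxel replicate 2 ended all 3 calls (Myl1 0.43, adjusted p = 0.118; Mylpf 0.51, 0.0537; Myh4 0.48, 0.0906), and leaving out paclitaxel replicate 4, C26 saline replicate 1 or C26 saline replicate 5 each ended those of Myl1 (0.37 to 0.52) and Myh4 (0.49 to 0.53). Leaving out C26 saline replicate 8 ended that of Myl1 (0.49, adjusted p = 0.0627).

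The slow genes and the IIa and IIx heavy chains were not called with any drug in males. With paclitaxel, Myh7 ran from 8.10 through 9.25 to 10.57, a difference of 0.97 with a 95% interval of -0.10 to 2.03 (adjusted p = 0.154 in limma). Myl3 differed by 0.82 (adjusted p = 0.184) and Myl2 by 0.69 (adjusted p = 0.252). The median difference of the 8 genes was 0.42 with 5-fluorouracil, 0.63 with paclitaxel and 0.31 with cisplatin.

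**Figure D3:**
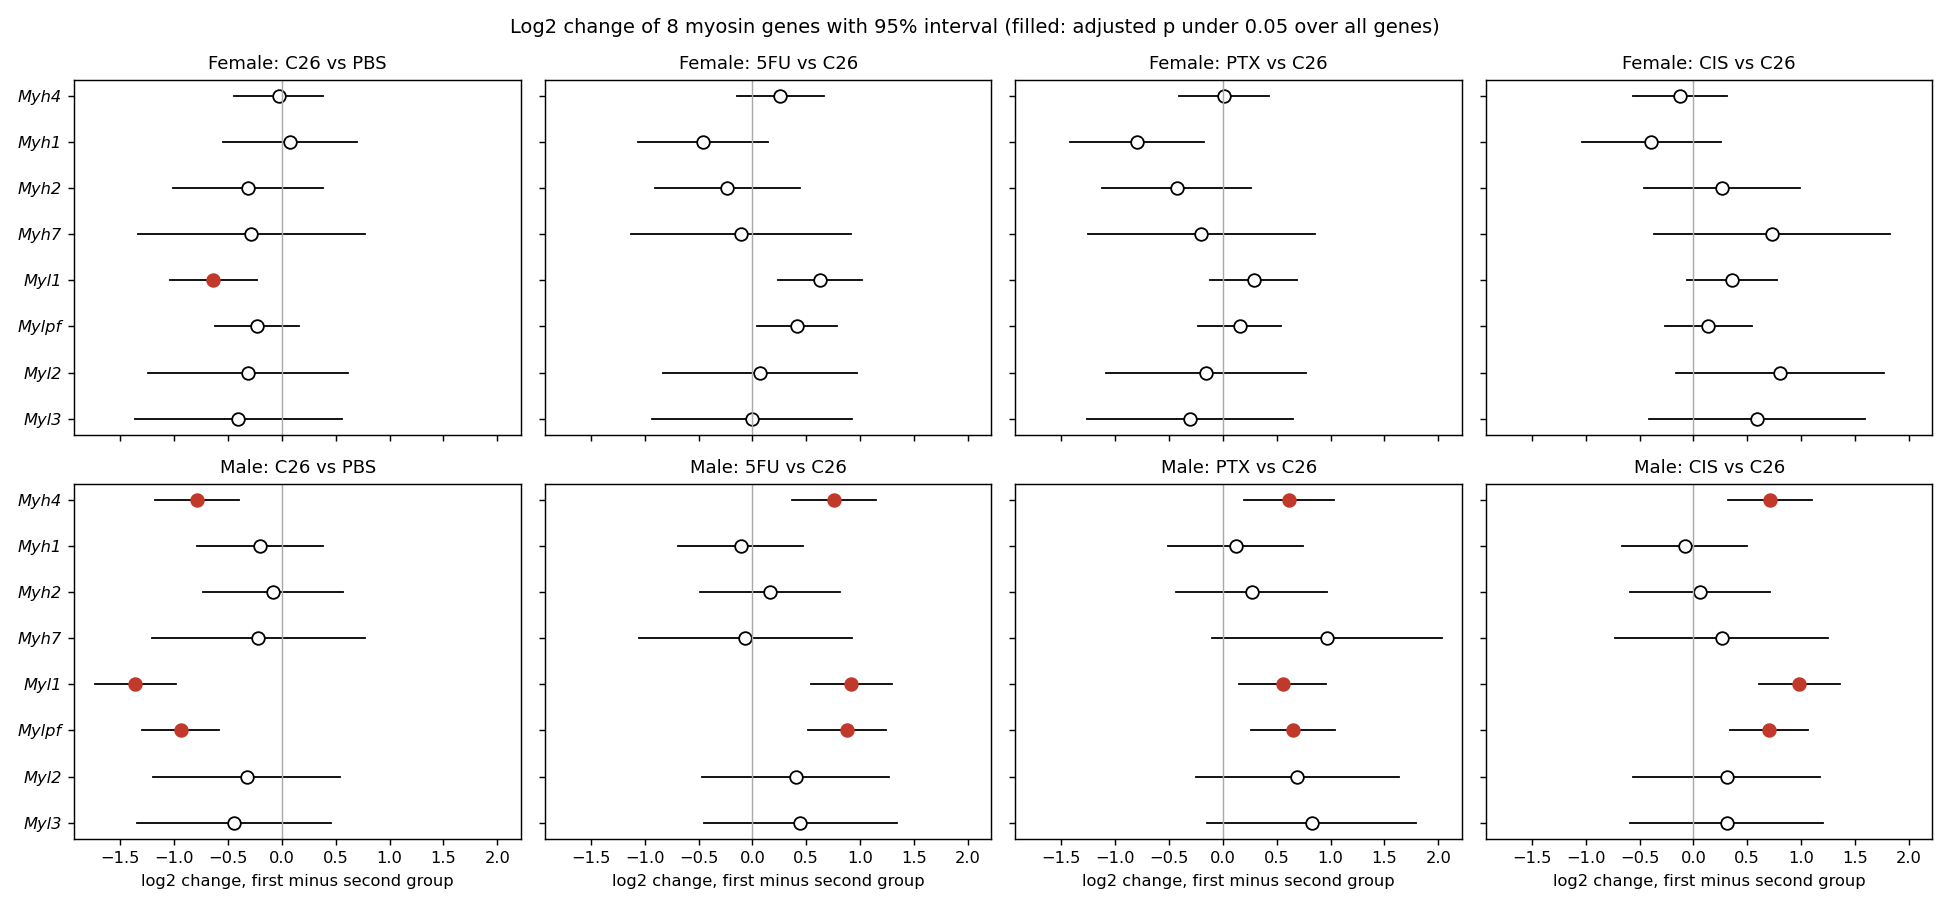
Log2 difference of each of the 8 genes in the 8 main comparisons, with its 95% interval. Filled points are called at an adjusted p under 0.05 over all genes. Filled points are Myh4, Myl1 and Mylpf in the 4 male panels, and Myl1 alone in the female tumour panel.

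In females, Myl1 was again lower with the tumour, at 0.643 of its PBS level, and was the 1 gene called among the 8. In this comparison 6.7% of all genes were called and 2.56% were called lower. Myl1 ran from 12.31 through 12.65 to 12.73 in PBS mice and from 11.37 through 12.06 to 12.56 in C26 saline mice. All 7 tumour libraries were below the PBS mean, and the groups overlapped. The difference was -0.64 ± 0.20 (adjusted p = 0.0401 in limma). It lies close to the threshold, and the call was lost without the high-GC libraries (-0.64, adjusted p = 0.0519) and on leaving out any 1 of PBS replicates 2, 4, 5, 6 and 7 or C26 saline replicates 1, 3 and 6 (adjusted p up to 0.145).

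Myh4 and Mylpf passed no test of the tumour in females. Myh4 ran from 14.90 through 15.64 to 15.74 in PBS mice and from 15.04 through 15.39 to 15.94 in C26 saline mice, a difference of -0.03 with a 95% interval of -0.45 to 0.39. Mylpf ran from 12.12 through 12.66 to 13.05 and from 12.00 through 12.29 to 12.82, a difference of -0.23 (-0.62 to 0.15). The groups nearly coincide in Myh4.

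With drugs in tumour-bearing females, 0 of the 8 genes were called. Over all genes 1.35% were called with 5-fluorouracil, 1.66% with cisplatin and 0% with paclitaxel, where 845 genes had an unadjusted p under 0.05. Myl1 with 5-fluorouracil ran from 12.09 through 12.65 to 12.98, and all 8 libraries were above the C26 saline mean. The difference of 0.63 ± 0.20 had an adjusted p of 0.0955 in limma, and it was called with quality weights (0.62, adjusted p = 0.00801). Myl1 differed by 0.36 with cisplatin (adjusted p = 0.349) and by 0.29 with paclitaxel. Myh1, the type IIx heavy chain, ran from 10.70 through 11.86 to 12.16 with saline and from 9.88 through 10.94 to 11.57 with paclitaxel. All 7 paclitaxel libraries were below the saline mean, but the difference of -0.80 ± 0.31 had an adjusted p of 0.640 in limma. With cisplatin, the slow genes Myh7 (0.73 ± 0.55, adjusted p = 0.469) and Myl2 (0.80 ± 0.48, adjusted p = 0.365) were not called, although all 6 libraries of Myh7 were above the saline mean.

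Set against PBS mice, few of these genes were called in tumour-bearing mice on a drug, which does not show that their levels were the same. In females 0 of 8 were called with any drug, where 0.383% of all genes were called with 5-fluorouracil, 4.58% with paclitaxel and 0.209% with cisplatin. In males 0 of 8 were called with 5-fluorouracil (4.76% of all genes) and with cisplatin (0.902%). The median difference of the 8 genes from male PBS mice was -0.04 with 5-fluorouracil and -0.10 with cisplatin. Male Myl1 ran from 12.92 to 13.40 with PBS, from 12.13 to 13.12 with 5-fluorouracil and from 12.33 to 13.34 with cisplatin. In males on paclitaxel, Myl1 was called lower, at 0.571 of its PBS level (-0.81 ± 0.20, adjusted p = 0.00267 in limma, 5 of 6 libraries below the PBS mean). In that comparison 37.5% of all genes were called and 20.6% were called lower. Without the high-GC libraries the difference of Myl1 was -0.47 (adjusted p = 0.565). Mylpf (-0.29, adjusted p = 0.236 in limma) and Myh4 (-0.17, adjusted p = 0.526) were not called in males on paclitaxel. Each was called lower in 1 of 9 other settings. For Mylpf this was the fit that adjusted for GC slope (-0.63, adjusted p = 0.0178 in limma). For Myh4 it was quantile normalization (-0.38, adjusted p = 0.0274 in limma).

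Between drugs, 0 of the 8 genes were called in any of 6 pairs. The share of all genes called was 0.188% for paclitaxel against 5-fluorouracil in females, 0.0217% for cisplatin against paclitaxel, and 0% for cisplatin against 5-fluorouracil, where 465 genes had an unadjusted p under 0.05. In males the shares were 0.0144%, 0.0144% and 0% (574 genes). Myl1 in males differed by 0.43 between cisplatin and paclitaxel (adjusted p = 0.148), and this was called with quality weights (0.61, adjusted p = 0.0417) and without paclitaxel replicate 4 (0.61, adjusted p = 0.0328).

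Between the PBS groups, Myl1 was 1.57-fold higher in males than in females. The 8 male libraries ran from 12.92 to 13.40 and the 7 female libraries from 12.31 to 12.73. How many of all genes lay apart in this way was not counted. The difference was 0.65 ± 0.20 (adjusted p = 0.0419 in limma), where 3.39% of all genes were called and 2.2% were called higher in males. The call was lost under quantile normalization (0.48, adjusted p = 0.0909), with libraries scaled to the same total (0.54, adjusted p = 0.0509), without the high-GC libraries (adjusted p = 0.110) and in 13 of 15 fits without 1 library (adjusted p = 0.0527 to 0.0871). Myh7, at 9.74 ± 0.90 (SD, n = 7) in females and 8.57 ± 0.79 (SD, n = 8) in males, differed by -1.17 ± 0.51 and was not called (adjusted p = 0.268).

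Whether the changes differ between the sexes was tested as an interaction, and 0 of the 8 genes were called. The tumour difference was more negative in males by 0.76 ± 0.29 for Myh4 (unadjusted p = 0.0102, adjusted p = 0.396 in limma). For Myl1 it was -0.73 ± 0.28 (adjusted p = 0.402) and for Mylpf -0.71 ± 0.27 (adjusted p = 0.380), male minus female. Over all genes 0.0361% were called. For the drugs 0% of all genes were called, with 2044 (5-fluorouracil), 2704 (paclitaxel) and 1993 (cisplatin) at an unadjusted p under 0.05. The cisplatin difference of Myh4 was 0.84 ± 0.29 higher in males (adjusted p = 0.235 in limma) and was called without male C26 saline replicate 4 (1.00, adjusted p = 0.0487). So a fall of Myh4 or Mylpf called in males and not in females is not shown to differ between them.

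Across libraries of the same group, the 8 genes varied to unequal degrees. The pooled SD within groups was 1.02 for Myh7, 0.93 for Myl3, 0.90 for Myl2, 0.66 for Myh2 and 0.59 for Myh1, against 0.37 for Myl1, 0.36 for Mylpf and 0.35 for Myh4. The median over all genes was 0.32, and 98.9% of genes varied less than Myh7. In male C26 saline mice, Myh7 ran from 5.36 through 8.47 to 9.97.

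The slow genes varied together. With group means subtracted, Myh7 correlated with Myl3 at r = 0.954 (rho = 0.942) and with Myl2 at r = 0.920 over the 73 libraries, and Myl2 with Myl3 at r = 0.957. Myh2, the type IIa heavy chain, followed them, with r = 0.847 to Myl2 and 0.782 to Myh7, and Myh1 followed Myh2 (r = 0.739). Among the fast genes r was 0.721 for Myh4 and Mylpf, 0.691 for Myh4 and Myl1, and 0.677 for Myl1 and Mylpf. Between the sets it was near 0 or below, at -0.292 for Myh4 and Myh7 and -0.0043 for Myh1 and Myh4. These values describe libraries that share tissue, depth and library effects, and no test was made.

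**Figure D4:**
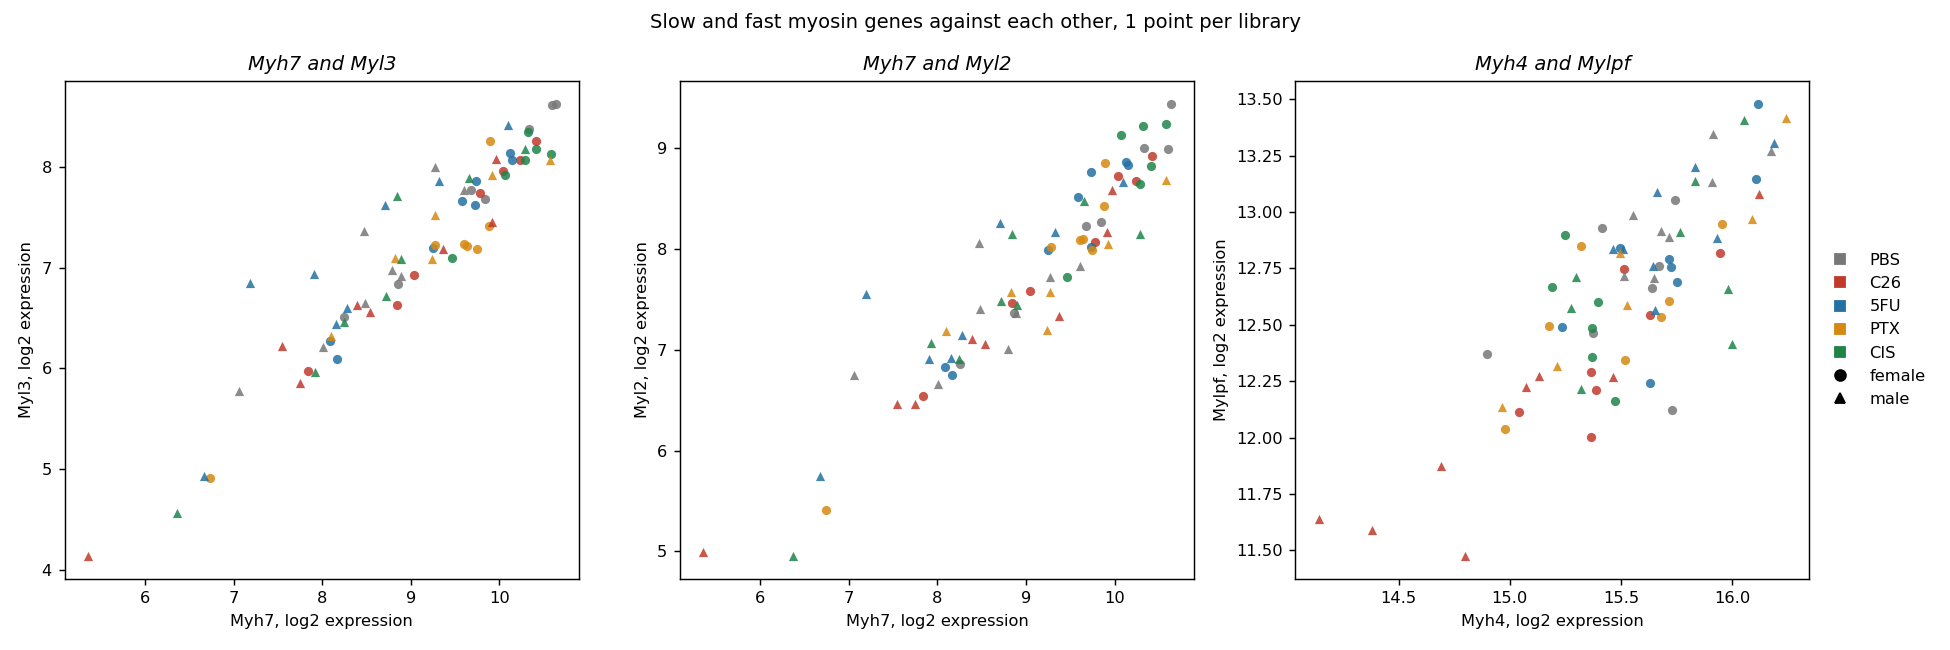
Log2 expression of pairs of myosin genes against each other, 1 point per library, coloured by arm (5FU, 5-fluorouracil; PTX, paclitaxel; CIS, cisplatin; C26, tumour with saline) and marked by sex. The slow heavy chain Myh7 and its light chain Myl3 lie along a line from 5.36 to 10.63 in Myh7, as do Myh7 and Myl2, while Myh4 and the fast light chain Mylpf scatter more widely about theirs.

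For each of the 8 genes, the 3 others of highest r over the 73 libraries, group means subtracted, are named as a description. For Myh7 these were Tnnc1 (r = 0.988), Tnnt1 (0.969) and Tnni1 (0.968), the slow troponin subunits, and for Myl3 they were Tnnt1 (0.972), Tnnc1 (0.963) and Myl2. For Myl2 they were Myl3, Tnnt1 (0.942) and Tnnc1 (0.924). For Myh2 they were the Z-disc protein Actn2 (0.932), the M-band protein Myom3 (0.931) and Ldhb (0.930), a lactate dehydrogenase subunit of oxidative tissue. For Myh1 they were Mb, the oxygen store myoglobin (0.875), Fndc5 (0.816) and Acss2 (0.810). For Myh4 they were Pygm, the muscle glycogen phosphorylase (0.878), Tmod1, which caps thin filaments (0.839), and Dop1b (0.826). For Myl1 they were Sh3bgr (0.939), the calcium buffer Pvalb (0.937) and the tropomyosin Tpm1 (0.926). For Mylpf they were Tnnc2, the fast troponin C (0.905), Park7 (0.898) and Eno3, the muscle enolase (0.893).

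Ratios of 2 genes within a library do not depend on how libraries are scaled, but some moved with other measures of the library, given below. For 8 ratios in 14 comparisons, 0 of 112 passed an exact permutation test after adjustment over all 112, and 20 had a raw p under 0.05. The ratio of Myl1 to Myh4, a fast light chain against the main fast heavy chain, had the smallest adjusted p. In females its log2 value ran from -3.08 through -2.96 to -2.59 with PBS and from -3.85 through -3.59 to -2.96 with the tumour. The difference was -0.61 ± 0.13 (exact two-sided permutation p = 0.00291, adjusted p = 0.109), with 7 of 7 libraries below the PBS mean. In males it ran from -2.93 through -2.50 to -2.30 and from -3.56 through -3.09 to -2.52, a difference of -0.58 ± 0.13 (exact permutation p = 0.00109, adjusted p = 0.109, 7 of 8 libraries). The male value passed in 0 of 4 other settings and in 2 of 16 tests without 1 library. These were without PBS replicate 4 (-0.63, exact permutation, adjusted p = 0.0464) and without C26 saline replicate 1 (-0.66, adjusted p = 0.0348).

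Against PBS, the ratio of Myl1 to Myh4 in males differed by -0.63 ± 0.15 with paclitaxel (exact permutation p = 0.00266, adjusted p = 0.109) and by -0.42 ± 0.15 with 5-fluorouracil (exact permutation p = 0.0073, adjusted p = 0.131). Without PBS replicate 4 both passed, at -0.69 and -0.47 (exact permutation, adjusted p = 0.0464 each). This was 1 of 14 tests without 1 library for paclitaxel and 1 of 16 for 5-fluorouracil. Without the high-GC libraries the differences were -0.33 and -0.26. Among the heavy chains, Myh4 to Myh1 differed by -0.58 ± 0.32 with the tumour in males (exact permutation p = 0.0908) and by 0.87 ± 0.36 with 5-fluorouracil against C26 saline (exact permutation p = 0.0309, adjusted p = 0.196). In females it differed by 0.81 ± 0.32 with paclitaxel (exact permutation p = 0.0315, adjusted p = 0.196), and Myh1 to Myh2 by -0.66 ± 0.23 with cisplatin (exact permutation p = 0.0186, adjusted p = 0.174). Myh7 to Myh2 differed from PBS females by 0.50 ± 0.16 with cisplatin (exact permutation p = 0.00932, adjusted p = 0.131, 6 of 6 libraries).

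The ratio of Myl1 to Mylpf, both fast light chains, differed with the tumour by -0.41 ± 0.14 in females (exact permutation p = 0.00874, adjusted p = 0.131) and by -0.42 ± 0.12 in males (exact permutation p = 0.00466, adjusted p = 0.131). This ratio also moved with measures of the library. Over the 73 libraries, with group means subtracted, it correlated with the mitochondrial share at r = 0.847 (rho = 0.844) and with the GC slope at r = -0.754 (rho = -0.795). For Myl1 alone these values were 0.041 and -0.071, and for Mylpf alone -0.656 and 0.547. The ratio of Myl1 to Myh4 also moved with them, at r = 0.472 and -0.509, and Mylpf to Myh4 at -0.430 and 0.287. For the remaining ratios r lay between -0.276 and 0.227. Transcript GC content is 48.9% for Myl1 and 52.6% for Mylpf. The part of these measures in the ratios was not tested beyond the values without the high-GC libraries.

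**Figure D5:**
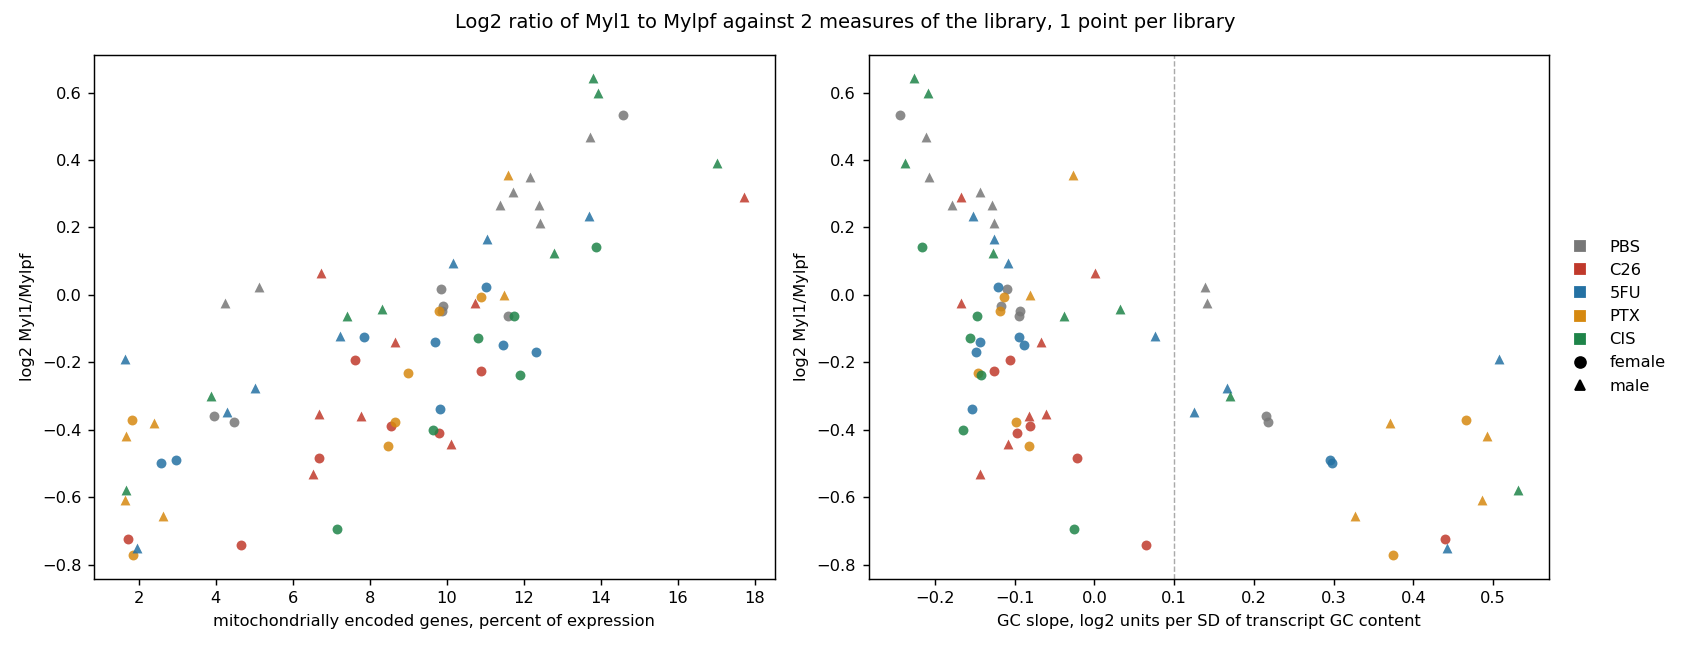
Log2 ratio of Myl1 to Mylpf in each library against the percent of mitochondrially encoded expression and against the GC slope, 1 point per library. The ratio rises with the mitochondrial share (r = 0.847 with group means subtracted) and falls with the GC slope (r = -0.754).

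Partners of the fast myosins, 10 genes of fast thin filaments, Z-discs and calcium handling, changed in males in part. With the tumour 4 fell and 0 rose, where 13% of all genes were called lower, and the median difference of the 10 was -0.26. Casq1, the calcium store protein of the sarcoplasmic reticulum, fell by 2.08 ± 0.24 (adjusted p = 1.28e-09 in limma). Pvalb fell to 0.355 of its PBS level (adjusted p = 7.13e-08), Tpm1 by 0.98 ± 0.16 (adjusted p = 1.38e-06) and Tnnc2 by 0.73 ± 0.16 (adjusted p = 0.000434). The direction of this list depends on scaling. Under quantile normalization 3 fell and 3 rose, with Tnnc2 no longer called (-0.37, adjusted p = 0.0761) and Actn3 (0.62), Mybpc2 (0.51) and Atp2a1 (0.32) called higher. Without C26 saline replicate 4 the number that fell was 6.

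With 5-fluorouracil 5 of the 10 partners rose in males, with paclitaxel 5 and with cisplatin 4, and 0 fell. Over all genes 11.3%, 13.5% and 7.66% were called higher. The median differences of the 10 were 0.49, 0.48 and 0.31, against -0.03, -0.0046 and -0.04 over all genes. Casq1 rose by 1.65, 1.16 and 1.68 (adjusted p = 4.16e-06, 0.00186 and 2.65e-06 in limma). Tpm1 rose by 0.89, 0.56 and 0.92, and Tnnc2 by 0.82, 0.68 and 0.68. Pvalb rose by 1.13 with 5-fluorouracil and by 1.15 with cisplatin. The number that rose with 5-fluorouracil was 9 without C26 saline replicate 4, and the number with paclitaxel ran from 0 in a fit of only the groups compared, 1 without the high-GC libraries and 2 without paclitaxel replicate 2 to 9 without paclitaxel replicate 6. In females, Casq1 fell with the tumour by 0.88 ± 0.26 (adjusted p = 0.0264 in limma), and 0 of 10 partners were called with any drug. The call of Casq1 was lost without any 1 of PBS replicates 4 and 5 and C26 saline replicates 1, 3 and 6. Of the 8 partners of slow fibres, 0 were called in any of the 8 main comparisons, and the median difference of the 8 ran from -0.29 with paclitaxel to 0.53 with cisplatin, both in females against C26 saline.

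Regulators of fibre type, 23 transcription factors and cofactors, moved in both directions in males with the tumour, where 6 fell and 3 rose. The median difference of the 23 was 0.0026, close to that of all genes. In this comparison 26.1% of all genes were called and 13% were called lower. Mafa, one of the large Maf factors known to drive Myh4 in mouse muscle, fell by 1.48 ± 0.26 (adjusted p = 8.78e-06 in limma), and Mef2c, a muscle activator, fell by 1.14 ± 0.27 (adjusted p = 0.000914). Nfix, which promotes the fetal muscle programme, fell by 0.44 ± 0.12 (adjusted p = 0.00263). The 3 that rose were Myog, the myogenic factor myogenin, by 1.92 ± 0.58 (adjusted p = 0.00964 in limma), Ppargc1a, a coactivator of mitochondrial and oxidative genes, by 1.39 ± 0.48 (adjusted p = 0.0238), and Vgll2, a cofactor of TEAD factors, by 1.03 ± 0.31 (adjusted p = 0.00876). The C26 saline and PBS libraries overlapped for all 3, and the number that rose was 2 without any 1 of PBS replicate 4 and C26 saline replicates 3 and 7. With libraries scaled to the same total 4 fell and 5 rose.

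Against C26 saline, Mafa rose in males by 1.55 with 5-fluorouracil, 1.34 with paclitaxel and 1.53 with cisplatin, and Nfix by 0.55, 0.68 and 0.58. Mef2c rose by 0.86 with cisplatin (adjusted p = 0.0223 in limma). In all, 2 regulators rose and 1 fell with 5-fluorouracil, 2 rose and 2 fell with paclitaxel, and 3 rose and 0 fell with cisplatin. These comparisons called 23.3%, 31.9% and 15.9% of all genes, a higher share than of the 23 regulators. The number that fell with paclitaxel ran from 0 without paclitaxel replicate 1 or without the high-GC libraries to 5 without paclitaxel replicate 6 or with the replicate block, and the number that fell with 5-fluorouracil from 0 to 3 in fits without 1 library. In females the tumour comparison called 2 of 23 lower, among them Mafa by 0.99 ± 0.28 (adjusted p = 0.0165 in limma). Over all genes 2.56% were called lower there. Without the high-GC libraries 6 of the 23 fell. Mafa rose in females with 5-fluorouracil by 1.03 ± 0.27 (adjusted p = 0.0291 in limma), a call lost without any 1 of C26 saline replicates 1, 3 and 6 and 5-fluorouracil replicates 3, 4, 5 and 8.

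Genes of thick filament assembly and turnover, 14 in all, also moved both ways in males with the tumour, where 4 fell and 2 rose. In that comparison 26.1% of all genes were called. Trim63, the ubiquitin ligase MuRF1 that acts on myosin heavy chain, rose by 2.45 ± 0.44 (adjusted p = 1.32e-05 in limma). Its relative Trim55 fell by 0.77 (adjusted p = 1.58e-06). Mylk4, of the myosin light chain kinase family, fell by 1.94 ± 0.31 (adjusted p = 1.93e-06), and Mybph, a relative of myosin-binding protein C, by 2.49 ± 0.50 (adjusted p = 8.10e-05). With drugs against C26 saline, Mybph rose by 3.32 with 5-fluorouracil, 2.47 with paclitaxel and 3.25 with cisplatin. Mylk4 rose by 1.36 with 5-fluorouracil and 1.67 with cisplatin, and Trim63 fell by 1.30 with cisplatin (adjusted p = 0.0325 in limma). The counts were 5 rose and 0 fell with 5-fluorouracil, 3 and 1 with paclitaxel, and 5 and 2 with cisplatin. Over all genes 23.3%, 31.9% and 15.9% were called. With paclitaxel the number that rose ran from 1 without paclitaxel replicate 2 to 5 without paclitaxel replicate 3 or C26 saline replicate 4. With 5-fluorouracil 2 fell under quantile normalization, with libraries scaled to the same total and with the replicate block. The 2 that fell with cisplatin were 0 without C26 saline replicate 1, and 1 of the 2 that rose with the tumour, Mylk2, was no longer called without C26 saline replicate 4 (0.67, adjusted p = 0.0519). The number that rose with the tumour was also 1 without any 1 of PBS replicate 8 and C26 saline replicates 3, 5 and 6. The median difference of the 14 was -0.02 with the tumour and 0.24, 0.26 and 0.09 with 5-fluorouracil, paclitaxel and cisplatin. In females Trim55 alone was called with the tumour, lower by 0.52 (adjusted p = 0.00695 in limma).

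Other sarcomeric myosins passed few tests. Of 10 genes sought, 8 were in the table. Myl6b, a light chain also found outside muscle, fell with the tumour in males by 0.68 (adjusted p = 0.0387 in limma) and rose by 0.75 with 5-fluorouracil and 0.93 with paclitaxel. Myh8, the neonatal heavy chain, rose by 0.91 with paclitaxel (adjusted p = 0.0412 in limma). Each of these calls was lost under other settings, and that of Myl6b with the tumour held in 3 of 9. Among 9 rows of non-muscle and smooth muscle myosins in males, Myh14 rose by 0.74 with the tumour (adjusted p = 0.00315 in limma) and fell by 0.55 with cisplatin, and Myl9 (0.67) and Myl12b (0.69) rose with paclitaxel. Under the 9 other settings 1 or 2 of these rows rose with the tumour, the fall of Myh14 with cisplatin was lost in 12 fits without 1 library, and both paclitaxel calls were lost with libraries scaled to the same total.

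Markers of other cells moved in the same comparisons, and their part in the myosin results was not tested. All 5 neutrophil markers rose with the tumour in both sexes, and 5 of 5 fell in males with 5-fluorouracil and with cisplatin against C26 saline. In females 4 of 5 fell with 5-fluorouracil, along with 3 of 5 macrophage markers, and 1 fell with cisplatin. Their summed level stayed low, at 0.000115 to 0.00106% of expression in male PBS mice and 0.000713 to 0.00314% in male C26 saline mice. Of 5 macrophage markers, 3 rose with the tumour in males and 2 in females, and their sum ran from 0.00239 to 0.00434% in male PBS and from 0.00313 to 0.0110% in male C26 saline mice. In females the neutrophil sum ran from 6.93e-05 to 0.000298% with PBS and from 0.000338 to 0.00351% with the tumour. The neutrophil markers Retnlg, Mmp8, S100a8 and S100a9 were at 0 in 17, 9, 5 and 1 of the 73 libraries.

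Of the 5 skeletal muscle fibre markers, 1 was called with the tumour in males, Des, higher by 0.67 (adjusted p = 0.00359 in limma). With paclitaxel in males Acta1 rose by 0.68 (adjusted p = 0.0230) and Ckm by 0.72 (adjusted p = 0.0325), and 6 of 13 mitochondrially encoded genes fell. The sum of the 5 fibre markers ran from 6.51 to 10.2% of expression in male PBS mice, 6.53 to 8.76% in male C26 saline mice and 7.64 to 13.9% in male paclitaxel mice. Cardiac markers are of interest because Myl2, Myl3 and Myh7 are also heart genes. Of 5 sought, Myh6 and Tnnt2 were in the table, their sum was 0.00109 to 0.0316% of expression, and 0 were called in any of the 8 main comparisons. Of the other marker lists, of 3 to 5 measured genes each, in males with the tumour, 2 endothelial markers fell and 1 rose, 1 satellite cell and 1 fibroblast marker rose and 1 of each fell, 1 adipocyte marker fell and 1 smooth muscle marker rose. In females with the tumour 1 endothelial marker fell and 1 erythroid marker rose. In males 1 fibroblast marker fell with 5-fluorouracil, 1 satellite cell marker rose with cisplatin, and with paclitaxel 1 endothelial marker rose, 1 fell and 1 epithelial marker rose. No Schwann cell marker was called in these 8 comparisons.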

How the data were processed

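RNA sequencing of gastrocnemius gave 1 deposited table of log2 expression values. The submitters' processing notes name Salmon, fastp, FastQC, MultiQC, limma and edgeR, and GRCm39 (mm39) as the build, but give no version or role. Per the labels' protocols, total RNA was isolated with TRIzol followed by a column kit, and Illumina paired ends were read. Judged by its values, the deposited log2 value has the form of an estimated count plus 0.5 over a scaled library size, and 85.0 to 90.7% of a library's values gave a count within 0.02 of a whole number. Count tests were not run, since these counts are estimates.

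The table holds 74 value columns, and 75 libraries are labelled. Female PBS replicate 8 was not analysed here, and 1 female library whose title names saline and whose treatment label names 5-fluorouracil entered no group. In the remaining 73, 10 group means were fitted at once with limma 3.58.1 (R 4.3.3; lmFit, then eBayes with its trend option), with 63 residual degrees of freedom, over 13856 genes and 25 comparisons. Tests were two-sided and p-values were adjusted by Benjamini-Hochberg within a comparison. Ratios were compared with exact permutation tests, adjusted over 112. The design gives groups of 6 to 8 mice and the batch label is the same throughout. The p-values cover the spread between these libraries. Gene lengths and GC content came from GENCODE vM21 (GRCm38), and promoters from RefSeq. The GC slope is the slope of a library's deviations on transcript GC content, over 10637 genes whose mean log2 value reached 1. The fit was tested on simulated data with known changes.

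The 8 genes, the lists of other genes and the tests were chosen with earlier results of these data known, so the lists support nothing on their own. All 8 genes were tested in every comparison, but values are not printed for every gene in each. In other lists, counts in each direction were given, with up to 4 genes of smallest adjusted p named, and genes named beyond these, such as Des, Actn3, Mylk2 or Myog, were chosen after their values were seen. One gene that this rule names is not reported here. For each of the 8 genes the 3 others of highest Pearson r were named. The alternatives were other scalings, an added pseudocount of 1, a filter on low genes, quality weights, a replicate block, the GC slope as a covariate, leaving out the 19 high-GC libraries or each library in turn, and fits of only the groups compared.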

Additional observations from a re-analysis of the deposited data

Results flagged for a closer look

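In 12 of 160 combinations of a gene or ratio with a group, 1 library stood apart from the rest of its group by more than Dixon's 95% critical value. Chance gives about 1 in 20 groups. Values are log2 expression or log2 ratios.

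Female paclitaxel replicate 1 stood apart in 4 of them. It was lowest in the slow genes Myh7 (6.74, others 9.28 to 9.90), Myl2 (5.41, others 7.99 to 8.85) and Myl3 (4.91, others 7.18 to 8.27), and highest in Myh4 to Myh2 (5.69, others 3.67 to 4.51). Its GC slope was -0.114 and its mitochondrial share 10.9%.

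Male C26 saline replicate 4 was highest in Myl1 (13.14, others 11.24 to 12.08). Male 5-fluorouracil replicate 7 was lowest in Myl1 (12.13, others 12.71 to 13.12) and in Myl1 to Myh4 (-3.80, others -3.07 to -2.51). Its GC slope was 0.442 and its mitochondrial share 1.96%. Male paclitaxel replicate 5 was lowest in Myh1 (10.93, others 11.85 to 12.10), and male paclitaxel replicate 4 was highest in Myh1 to Myh2 (1.07, others -0.15 to 0.21). Male cisplatin replicate 5 was lowest in Myl2 (4.95, others 6.91 to 8.47), female cisplatin replicate 1 in Myl3 (7.10, others 7.93 to 8.35), and female PBS replicate 2 in Myh7 to Myh2 (-2.72, others -2.17 to -1.91).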

How the results depend on the processing

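The male tumour calls of Myh4, Myl1 and Mylpf held in all 9 other settings of the fit and in all 16 fits without 1 library. For Myh4 the highest adjusted p of the 9 settings was 0.0496 in limma, just under the threshold, against 0.0135 for Mylpf and 0.000187 for Myl1. Of the male drug calls against C26 saline, those of Myl1 and Mylpf with 5-fluorouracil and of Myl1 with cisplatin held in 9 of 9 settings, and those with paclitaxel in 4 (Myl1), 5 (Myh4) and 6 (Mylpf) of 9. The number of the 8 genes called in males with cisplatin against C26 saline was 1 in place of 3 under quantile normalization and in a fit of only the groups compared. With paclitaxel it was 0 in place of 3 without the high-GC libraries, after adjustment for the GC slope, and in a fit of only the groups compared. In females with 5-fluorouracil it was 1 in place of 0 with quality weights, and with the tumour 0 in place of 1 without the high-GC libraries. The cause was not tested. Fits without libraries hold fewer samples, and those with quantile normalization or the GC slope hold all 73 libraries. Without 1 library, the count ran from 0 to 1 for the female tumour comparison and from 0 to 3 for paclitaxel in males (0 without paclitaxel replicate 2, and 1 without paclitaxel replicate 4, C26 saline replicate 1 or C26 saline replicate 5). The count of ratios called in the male tumour comparison ran from 0 to 1. No called value changed sign under these settings.

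With libraries scaled to the same total, the median of all genes moved to 0.11 in the male tumour comparison and to -0.21, -0.17 and -0.20 with 5-fluorouracil, paclitaxel and cisplatin against C26 saline. The differences of Myl1 were then -1.25, 0.74, 0.39 and 0.82.

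Replicate numbers were taken as names only. In 1 of 20 pairs of groups, female C26 saline with female paclitaxel, every same-numbered pair of libraries deviated together (lowest r of 7 pairs 0.156), and there 0 of the 8 genes were called with and without the replicate block. Over all groups, deviations from group means of same-numbered libraries correlated at a mean r of 0.114, and at -0.0101 for other numbers, and 66 of 276 best matches had their own number. With the replicate block, 3 of the 8 genes were called in each of the 4 male main comparisons and 1 in the female tumour comparison, as without it, and 0 ratios were called. The wide spread of Myh7, Myl2 and Myl3 within groups, with a pooled SD of 0.90 to 1.02, limits what can be called for the slow genes.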
